A study of Mus musculus with 14 samples.

Results

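The comparison described here sets the cerebral cortex of mice 7 d after cerebral venous sinus thrombosis (CVST), a clot in the large veins that drain the brain, against the cortex of sham mice. Its members are the 5 libraries labelled CVST 7 d and the 4 labelled sham, 9 of the 14 libraries of the series, over all 55359 rows of the gene count table that carry an Ensembl gene. The series compared damaged with sham cortex at 2 d and 7 d by RNA sequencing of total RNA from the cortex of both hemispheres. The other 5 libraries were taken at 2 d and enter only where the times are set side by side. The labels give no strain, sex or age, no genetic change, no way in which the clot was made, and no day on which sham cortex was collected. They number the libraries within a group without stating that each is a separate animal, so the p-values measure the spread between these libraries, which may be technical. Values listed per library stand in the order of the library numbers, 1 to 4 in sham and 1 to 5 at 7 d.

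A blocked sinus raises venous pressure, and the cortex behind it can swell, bleed and lose tissue. In the days that follow an injury of the cortex, microglia and recruited macrophages take up debris, astrocytes enlarge and build intermediate filaments, and interferon-induced genes and antigen presentation genes are commonly switched on. Neurons carry a separate and fast readout: immediate early genes are transcribed within minutes of synaptic activity through calcium and cyclic AMP signalling, and their RNA is short-lived, so their level follows recent activity.

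The gene counts of the 9 libraries came to 14.7 M to 20.3 M each (M, mega). All 9 carried neuronal markers of cortex: Slc17a7, the vesicular glutamate transporter of cortical excitatory neurons, read 1281, 1081, 1298 and 1016 CPM in sham and 1339.9, 1458, 1200.3, 893 and 983 CPM at 7 d. The first principal component of log2 CPM (counts per library scaled to a common total, TMM factors applied) held 44.7% of the variance. It placed sham at -40.1 to -22.9, CVST 7 d 2 at -15.3 and the other 7 d libraries at 13.97 to 61.4. Sham 2, sham 4 and CVST 7 d 5 stood apart in 15 striatal genes, whose mean was 5.83, 5.97 and 5.75 log2 CPM against 2.83 to 3.34 in the other 6 libraries. Ttr, the transthyretin of choroid plexus, reached 251 and 788 CPM in sham 2 and sham 4, and at most 104 CPM in any 7 d library. The fit without sham 2, sham 4 and CVST 7 d 5, given with the overall counts, called 0 genes and therefore 0 members of every list. In that fit the smaller number of libraries and the tissue content cannot be told apart.

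At 7 d, 439 of 16431 genes tested were higher than in sham and 127 were lower, at an adjusted p under 0.05 in edgeR's quasi-likelihood test with Benjamini-Hochberg adjustment over all genes. That is 2.67% of the genes tested for the higher and 0.773% for the lower direction, the background for each list below. The sides differed in size of change: the median log2 fold change was 1.72 among the higher and -0.53 among the lower genes, and 341 higher but 20 lower genes changed at least 2-fold. They also differed in starting level, with a median of 3.18 CPM in sham for the higher genes, 51.2 CPM for the lower genes and 18.9 CPM for all genes tested. The 2 groups of libraries did not overlap for 407 of the 439 higher and 123 of the 127 lower genes. A low p on the same libraries favours such separation, so this is no separate support for the calls. Over all genes, 5.89% lay wholly above sham and 3.83% wholly below. Over all genes tested the median log2 fold change was -0.0131. In bulk cortex, more or fewer cells of a type and more or less RNA per cell cannot be told apart.

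The number of calls rested on the whole set of libraries. With sham 1, 2, 3 or 4 left out, 34, 11, 0 and 3 genes were called higher and 34, 13, 1 and 18 lower. With CVST 7 d 1, 2, 3, 4 or 5 left out, the counts were 182, 877, 315, 92 and 250 higher, and 60, 133, 69, 33 and 71 lower. With sham 3 left out, 1612 genes were higher and 1117 lower at an unadjusted p under 0.05. With the 3 libraries of high striatal markers left out together, a comparison of 2 against 4 libraries added after the data were seen, edgeR called 0 genes higher and 0 lower, with 1149 and 757 at an unadjusted p under 0.05. With the striatal score as a covariate, also added later, 623 genes were higher and 141 lower. All 566 called genes kept their direction in each of these fits in which they were tested. The groups did not overlap for most of these genes, so leaving out libraries could hardly reverse them. The kept direction is therefore no separate support for the calls. Beside a called gene, a count such as 8 of the 9 gives the fits that leave out 1 library in which it was called. Not every gene is given this count. Of the 123 called genes reported, 69 were called in at most 4 of these fits.

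**Figure D1:**
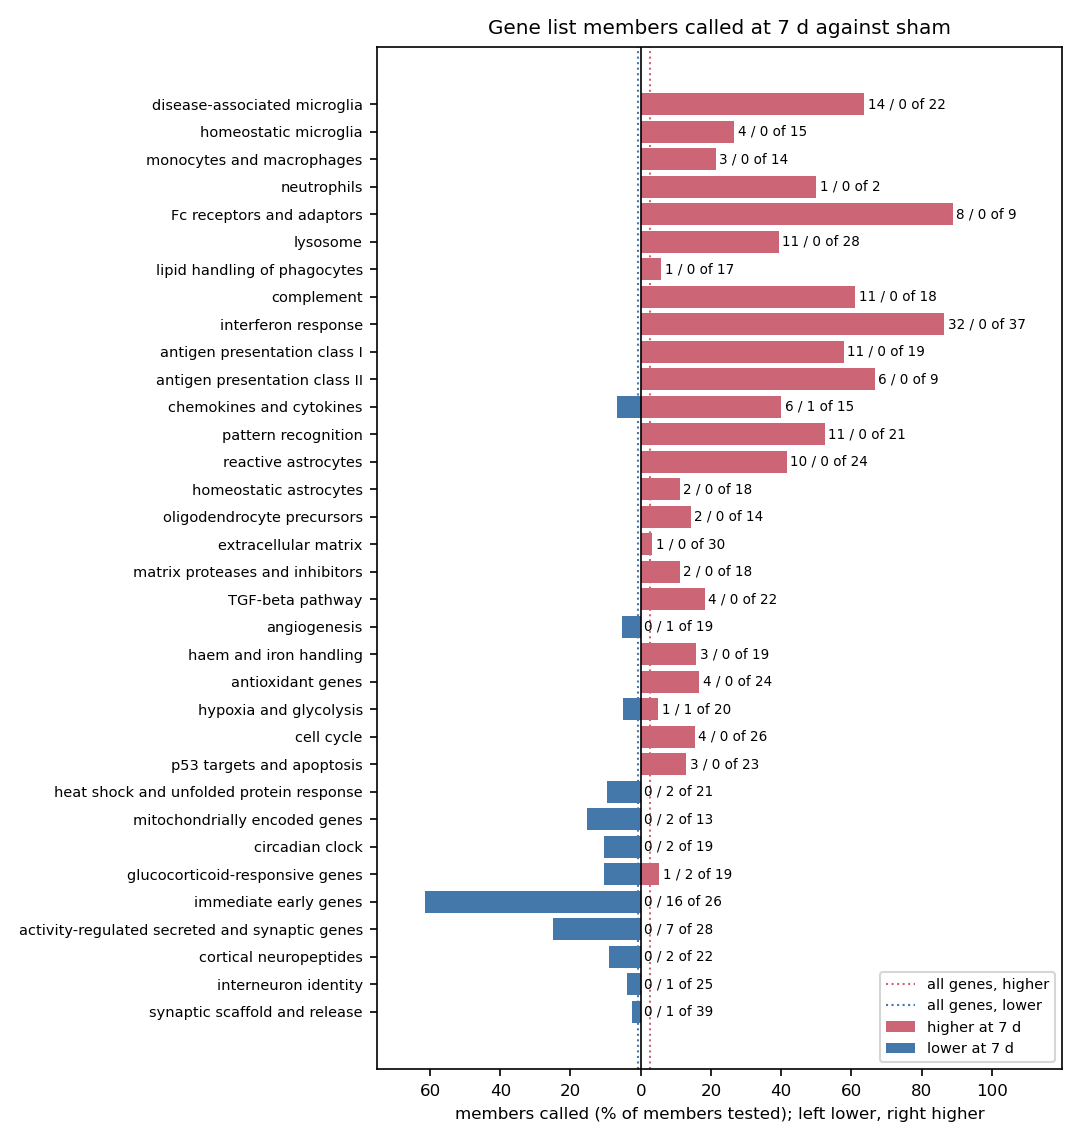
Share of the tested members of each gene list called higher (right, red) or lower (left, blue) at 7 d than in sham, for the lists with at least 1 call; labels give members called higher / lower of members tested, and dotted lines mark the share over all genes tested. Bars to the left are longest for the immediate early genes (16 of 26), and bars to the right for the Fc receptors and adaptors (8 of 9) and the interferon response (32 of 37).

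Of the 26 immediate early genes, 16 were lower, 0 were higher, and the median log2 fold change was -0.83. Of the 15 lower genes of largest fold change among the called genes without overlap, 10 were immediate early genes. The lowest adjusted p of all genes, higher or lower, belonged to Egr4 (ENSMUSG00000071341), a zinc-finger transcription factor induced by neuronal activity, which read 25.1, 22.03, 23.1 and 24.9 CPM in sham and 10.2, 8.31, 9.69, 7.74 and 8.73 CPM at 7 d. Every 7 d library lay below every sham library, and the spread within each group was small (log2 fold change -1.41 ± 0.10 (SE), adjusted p = 0.000872). Egr4 was the only one of the 123 called genes whose values are reported here that was called in all 9 fits that leave out 1 library.

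The Fos family and the Nr4a receptors followed. Fos (ENSMUSG00000021250), a subunit of the AP-1 transcription factor, read 25.7, 25.7, 22.9 and 22.2 CPM in sham and 6.1, 4.47, 8.32, 10.8 and 9.04 CPM at 7 d. The groups did not overlap, and CVST 7 d 2 was the lowest library (log2 fold change -1.63 ± 0.21 (SE), adjusted p = 0.0133). Its relatives Fosb (-1.15 ± 0.19, adjusted p = 0.0182) and Fosl2 (-1.05 ± 0.16, adjusted p = 0.0154) and its dimer partner Junb (-0.90 ± 0.12, adjusted p = 0.0133) were also lower. Nr4a1 (ENSMUSG00000023034), an orphan nuclear receptor, read 105, 83.9, 91.3 and 66.5 CPM in sham and 28.3, 24.5, 39.8, 33.2 and 31.4 CPM at 7 d. The highest 7 d library lay well below the lowest sham library (log2 fold change -1.46 ± 0.15 (SE), adjusted p = 0.00882). Nr4a3, of the same receptor family, fell from 46.5 ± 7.24 to 22.2 ± 5.49 CPM (-1.07 ± 0.18, adjusted p = 0.0216; here and below, group levels are mean ± SD, n = 4 and 5). These genes were called in 7 of the 9 (Fos), 6 of the 9 (Fosb), 6 of the 9 (Fosl2), 8 of the 9 (Junb), 8 of the 9 (Nr4a1) and 5 of the 9 (Nr4a3) fits that leave out 1 library.

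The sequences upstream of Fos, Nr4a1 and Egr4 are shown because these 3 immediate early genes were lower without overlap and hold the core of the cyclic AMP response element (TGACG, or CGTCA read from the other strand), which CREB, the calcium- and cyclic AMP-driven activator of immediate early genes, is known to bind. Each run is the 250 bases before the RefSeq start on GRCm38.p6, 5′ to 3′ on the gene's strand, with the cores in capitals. They lie at chr12:85473640-85473889 (plus strand), chr15:101266596-101266845 (plus strand) and chr6:85513590-85513839 (minus strand).
Fos: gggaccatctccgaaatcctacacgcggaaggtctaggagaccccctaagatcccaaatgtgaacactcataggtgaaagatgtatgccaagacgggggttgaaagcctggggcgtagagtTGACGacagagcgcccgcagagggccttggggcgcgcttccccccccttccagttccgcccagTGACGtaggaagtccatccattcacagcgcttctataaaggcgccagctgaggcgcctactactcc
Nr4a1: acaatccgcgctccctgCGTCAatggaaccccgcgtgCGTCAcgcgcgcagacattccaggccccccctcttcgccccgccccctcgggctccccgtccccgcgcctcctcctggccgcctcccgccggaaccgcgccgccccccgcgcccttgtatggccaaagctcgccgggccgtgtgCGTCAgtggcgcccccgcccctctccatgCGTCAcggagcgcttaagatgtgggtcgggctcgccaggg
Egr4: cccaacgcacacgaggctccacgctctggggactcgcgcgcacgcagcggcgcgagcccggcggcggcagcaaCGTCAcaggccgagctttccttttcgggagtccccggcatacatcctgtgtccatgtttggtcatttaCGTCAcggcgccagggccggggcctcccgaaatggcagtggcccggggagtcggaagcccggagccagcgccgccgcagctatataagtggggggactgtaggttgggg
Fos held 2 cores, ending 124 and 61 bases before the start, Nr4a1 held 4 and Egr4 held 2. In RefSeq's windows of 250 bases before to 50 bases after each start, the TGACG core occurred in 16 of 20 immediate early genes with a window (80%), in 46 of 93 lower genes (49.5%) and in 64 of 328 higher genes (19.5%). It occurred in 23.1% of all windows and in 33.5% of those of genes tested, and in 10 of 17 class I antigen presentation genes, which were on the higher side. The full palindrome TGACGTCA, which contains this core, occurred in 3 of 20 immediate early genes and in 3.4% of genes tested. A match is a description of the letters and not of binding.

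Arc, the postsynaptic protein that removes AMPA receptors from synapses, read 229.6, 169, 165 and 114 CPM in sham and 37.3, 46.2, 72.5, 66.2 and 53.2 CPM at 7 d. Sham 1 was the highest library, and all 7 d libraries lay below the lowest sham library (log2 fold change -1.62 ± 0.22 (SE), adjusted p = 0.0136; 7 of the 9). Egr1 (ENSMUSG00000038418), another zinc-finger factor of this family, read 337, 303, 283 and 263 CPM in sham and 129, 75.4, 148, 131 and 143 CPM at 7 d, with CVST 7 d 2 the lowest (log2 fold change -1.24 ± 0.17 (SE), adjusted p = 0.0136; 7 of the 9). Egr2 had the steepest fall of the family, from 10.4 ± 0.887 to 2.29 ± 1.26 CPM (-2.16 ± 0.35, adjusted p = 0.019). Npas4, a neuronal transcription factor that depends on activity, fell from 14.9 ± 0.605 to 7.17 ± 1.65 CPM (-1.05 ± 0.15, adjusted p = 0.0147). Nab2, outside the list, the corepressor that binds EGR proteins and is itself an EGR target, fell from 43.2 ± 2.28 to 25.5 ± 2.15 CPM (-0.76 ± 0.079, adjusted p = 0.00882). Klf10, Dusp1, Dusp6, Egr3 and Per1 completed the called members, with log2 fold changes of -0.89, -0.74, -0.71, -0.84 and -0.53; Egr3 was the one whose groups overlapped. In that order they were called in 4, 2, 1, 2 and 4 of the 9 fits.

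Not every immediate early gene was called. Jun, named after its values were seen, read 41.9, 58.1, 74.9 and 68.7 CPM in sham and 48.8, 93.02, 55.8, 54.7 and 57.4 CPM at 7 d, with CVST 7 d 2 the highest of all (log2 fold change 0.0234 ± 0.21 (SE), adjusted p = 0.965). Nr4a2, likewise named afterwards, spanned 7.35 to 72.4 CPM at 7 d and 16.4 to 79.7 CPM in sham, so the groups overlapped throughout. Of the 26, 9, 3, 1 and 6 were called lower when sham 1, 2, 3 or 4 was left out. The numbers without CVST 7 d 1 to 5 were 13, 17, 14, 12 and 14. Without the 3 libraries of high striatal markers 0 were called; the summed level of the list was 1209 to 1557 CPM in sham and 699 to 889 CPM at 7 d. CVST 7 d 2, which was nearest to sham in the phagocyte genes below, was among the lowest libraries here, with a list mean -0.99 (log2) from the sham mean, against -0.67 to -1.1 in the other 7 d libraries.

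**Figure D2:**
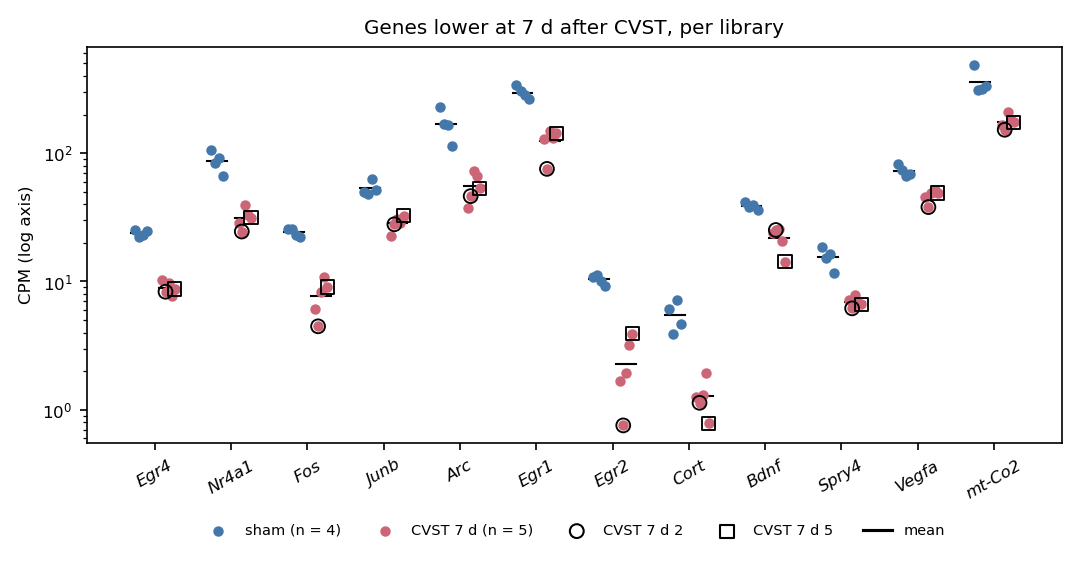
CPM (log axis) of 12 genes called lower at 7 d, one point per library (blue sham, n = 4; red CVST 7 d, n = 5; black bars are means), with CVST 7 d 2 ringed and CVST 7 d 5 boxed. The groups do not overlap for any of the 12 genes, and CVST 7 d 2 is the lowest library for Nr4a1, Fos, Egr1, Egr2, Spry4, Vegfa and mt-Co2.

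Neuronal activity also induces genes of secreted and synaptic proteins, more slowly. Of 28 activity-regulated secreted and synaptic genes, 7 were lower and 0 higher (median log2 fold change -0.35). Spry4, an inhibitor of growth factor signalling to ERK, read 18.4, 15.2, 16.5 and 11.7 CPM in sham and 7.14, 6.17, 7.81, 6.85 and 6.64 CPM at 7 d, and the groups did not overlap (log2 fold change -1.156 ± 0.14 (SE), adjusted p = 0.0133; 8 of the 9). Bdnf, the neurotrophin released at active synapses, read 41.9, 37.9, 39.1 and 36.001 CPM in sham and 24.000, 25.2, 25.7, 20.5 and 14.2 CPM at 7 d, lowest in CVST 7 d 5 (log2 fold change -0.82 ± 0.15 (SE), adjusted p = 0.0293; 4 of the 9). Homer1, a scaffold of metabotropic glutamate receptors whose short form is induced by activity, fell from 249 ± 38.7 to 145 ± 22.3 CPM (-0.78 ± 0.13, adjusted p = 0.0217). The counts do not separate its short and long forms. Pcsk1, a convertase that cleaves prohormones, fell from 58.9 ± 7.12 to 32.9 ± 9.1 CPM (-0.84 ± 0.19, adjusted p = 0.0385), and Rheb, the GTPase that activates mTORC1, from 124 ± 5.33 to 98.2 ± 8.97 CPM (-0.34 ± 0.0779, adjusted p = 0.0438). The number of the 28 called lower was 1, 1, 0 and 2 without sham 1, 2, 3 and 4. It was 3, 7, 5, 2 and 3 without CVST 7 d 1 to 5.

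Among 22 neuropeptide and receptor genes tested, 2 were lower. Cort (ENSMUSG00000028971), cortistatin, a relative of somatostatin made by cortical interneurons, read 6.08, 3.91, 7.11 and 4.66 CPM in sham and 1.25, 1.13, 1.31, 1.95 and 0.784 CPM at 7 d. All 7 d libraries lay well below the lowest sham value (log2 fold change -2.08 ± 0.27 (SE), adjusted p = 0.0133), and Cort was called in 8 of the 9 fits that leave out 1 library. Sstr2, a receptor of both peptides, fell from 25.1 ± 5.07 to 14.03 ± 3.31 CPM (-0.84 ± 0.19, adjusted p = 0.0382; 1 of the 9 fits). Sst itself was not called: it read 139, 155, 176 and 199 CPM in sham and 111, 131, 121, 77.1 and 126 CPM at 7 d (log2 fold change -0.56 ± 0.16 (SE), adjusted p = 0.076). Interneuron identity genes had 1 call in 25: Dlx1, a homeobox factor of interneurons, fell from 34.3 ± 2.42 to 26.7 ± 0.975 CPM (-0.36 ± 0.0715, adjusted p = 0.0313). Gad1, the GABA-synthesizing enzyme, was not called (387 ± 43.7 CPM in sham and 342 ± 33.1 CPM at 7 d; -0.18 ± 0.10, adjusted p = 0.355).

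Other lower genes of low p or large fold lay outside the lists. Trib2, a pseudokinase, read 53.7, 58.7, 55.3 and 56.4 CPM in sham and 33.2, 29.98, 37.8, 34.8 and 36.3 CPM at 7 d, without overlap and called in 8 of the 9 fits (log2 fold change -0.70 ± 0.0754 (SE), adjusted p = 0.00882). Dnajb5, a cochaperone of HSP70, read 193, 178, 178 and 181 CPM in sham and 103, 97.9, 119, 121 and 99.9 CPM at 7 d, likewise without overlap (log2 fold change -0.76 ± 0.0827 (SE), adjusted p = 0.00882; 8 of the 9). Nectin1, an adhesion molecule of synaptic junctions, fell from 52.5 ± 3.26 to 28.7 ± 4.33 CPM (-0.87 ± 0.11, adjusted p = 0.0133; 8 of the 9). Zdbf2, a paternally expressed imprinted gene, fell from 29.99 ± 4.99 to 14.6 ± 1.51 CPM (-1.04 ± 0.13, adjusted p = 0.0133; 8 of the 9). Gng4, a G-protein gamma subunit, and Fign, a microtubule-severing ATPase, had log2 fold changes of -1.08 and -1.31, and Alkal2, a ligand of the receptor kinases ALK and LTK, -1.65 at about 2.03 CPM in sham. These 3 were called in 4, 2 and 3 of the 9 fits. In all, 33 of the 127 lower genes were members of one of the 56 lists, so most of the lower side lay outside them.

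Among the most abundant lower genes was Cx3cl1. This neuronal chemokine, whose receptor sits on microglia, read 699, 708, 625 and 606 CPM in sham and 567, 456, 520.4, 437 and 442 CPM at 7 d and was called in 1 of the 9 fits (log2 fold change -0.45 ± 0.10 (SE), adjusted p = 0.0384). Synpo, synaptopodin of the dendritic spine apparatus, had a log2 fold change of -0.39 ± 0.0918, adjusted p = 0.0463 and Rasl10b, a small GTPase, -0.52 ± 0.10, adjusted p = 0.0313. Synpo was called in 1 and Rasl10b in 2 of the 9 fits. Vegfa, the endothelial growth factor also induced by hypoxia, fell from 72.7 ± 7.19 to 46.5 ± 5.26 CPM (-0.64 ± 0.10, adjusted p = 0.0154; 5 of the 9 fits). It was the 1 called member of 19 angiogenesis genes. Of the 13 mitochondrially encoded protein genes, 2 were called lower in edgeR. At an unadjusted p under 0.05, 7 were lower and 0 higher, and DESeq2 called 6 lower and 0 higher. mt-Co2, subunit 2 of cytochrome oxidase, read 486, 311, 314 and 333 CPM in sham and 164, 152, 209, 181 and 173 CPM at 7 d (log2 fold change -1.04 ± 0.15 (SE), adjusted p = 0.0136; 7 of the 9), with sham 1 far above the others, and mt-Atp6 fell from 2205 ± 377 to 1391 ± 129 CPM (-0.66 ± 0.12, adjusted p = 0.0276). The list's summed level was 69726 to 77895 CPM in sham and 66419 to 70775 CPM at 7 d. Nuclear copies of mitochondrial DNA share reads with both genes, so their counts are uncertain. None of 25 nuclear-encoded oxidative phosphorylation genes was called in edgeR or DESeq2 (6 lower and 0 higher at an unadjusted p under 0.05).

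Other stress and timing genes on the lower side were few. The clock repressors Per1 and Per2 were the 2 calls among 19 clock genes. Per1 fell from 77.9 ± 9.74 to 53.9 ± 5.03 CPM (-0.53 ± 0.10, adjusted p = 0.0276). Per2 fell from 44.02 ± 6.88 to 30.3 ± 3.35 CPM (-0.54 ± 0.12, adjusted p = 0.0378) and was called in 0 of the 9 fits that leave out 1 library. Per1 is also activity-induced. Dnajb1, an HSP40 cochaperone, and Atf4, a transcription factor of the integrated stress response, were the 2 calls among 21 heat shock and unfolded protein response genes (-0.40 ± 0.082, adjusted p = 0.0323 and -0.43 ± 0.10, adjusted p = 0.0473). Each was called in 1 of the 9 fits that leave out 1 library. Among 19 glucocorticoid-responsive genes, Per1 and Dusp1 were lower and Sgk1, a kinase that regulates ion channels, was higher (from 48.97 ± 3.99 to 92.04 ± 29.9 CPM; 0.91 ± 0.21, adjusted p = 0.0409). Cholesterol synthesis had 0 calls of 22 in edgeR and 0 in DESeq2, with 6 genes lower at an unadjusted p under 0.05.

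On the higher side, interferon-induced genes held the most calls of any list. Of 37 tested, 32 were higher and 0 lower (median log2 fold change 1.92), and in 32 the groups did not overlap. Ifit3 (ENSMUSG00000074896), an antiviral protein of the IFIT family, read 6.61, 9.27, 4.82 and 6.54 CPM in sham and 41.1, 19.1, 32.4, 39.4 and 20.96 CPM at 7 d (log2 fold change 2.17 ± 0.28 (SE), adjusted p = 0.0133; 7 of the 9 fits that leave out 1 library). Its lowest 7 d library lay well above its highest sham library. Its neighbour Ifit3b is a near-identical copy, and reads may be shared between them (1.8 ± 0.23, adjusted p = 0.0133). Oasl2, an oligoadenylate synthetase-like protein, rose from 3.18 ± 0.753 to 18.6 ± 7.84 CPM (2.55 ± 0.34, adjusted p = 0.0134; 7 of the 9).

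The sequence upstream of Ifit3 is shown with that of B2m, the light chain of class I molecules, because both were higher and both hold the core of the interferon-stimulated response element (GAAA and GAAA with any 2 bases between, or TTTC and TTTC from the other strand). The transcription factors activated by interferon receptors are known to read such letters. The 250 bases before each RefSeq start lie at chr19:34583279-34583528 (plus strand) and chr2:122147437-122147686 (plus strand) on GRCm38.p6, with the core in capitals.
Ifit3: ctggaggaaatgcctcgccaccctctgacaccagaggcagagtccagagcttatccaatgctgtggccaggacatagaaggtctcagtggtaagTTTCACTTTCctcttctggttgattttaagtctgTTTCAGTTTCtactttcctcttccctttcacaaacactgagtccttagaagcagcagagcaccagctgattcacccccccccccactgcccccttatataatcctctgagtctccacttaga
B2m: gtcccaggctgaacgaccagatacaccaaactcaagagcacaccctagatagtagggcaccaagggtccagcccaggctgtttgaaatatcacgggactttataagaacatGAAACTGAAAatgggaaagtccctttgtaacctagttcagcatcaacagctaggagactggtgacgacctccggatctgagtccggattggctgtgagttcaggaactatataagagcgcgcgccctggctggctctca
Ifit3 held 2 cores, ending 146 and 112 bases before the start, and B2m held 1. The core occurred in 18 of 28 interferon genes with a RefSeq window (64.3%), in 53 of 328 higher genes (16.2%) and in 8 of 93 lower genes (8.6%), against 3.99% of all windows and 3.68% of those of genes tested. Of the class I antigen presentation genes 5 of 17 held it. On the lower side, 4 of 21 activity-regulated genes and 2 of 20 immediate early genes held it. Among called members the core occurred in 14 of 23 interferon, 2 of 9 class I, 3 of 6 activity-regulated and 2 of 12 immediate early genes.

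Other members spanned effectors and regulators. Bst2, tetherin, which holds viruses on the cell surface, rose from 1.72 ± 0.218 to 8.67 ± 3.16 CPM (2.33 ± 0.32, adjusted p = 0.0136). Irf7, the amplifier of type I interferon, rose from 2.45 ± 0.509 to 12.1 ± 6.0 CPM (2.29 ± 0.39, adjusted p = 0.0205), and Usp18, which dampens signalling from the interferon receptor, from 0.786 ± 0.218 to 3.97 ± 1.42 CPM (2.32 ± 0.33, adjusted p = 0.0136). Zbp1, a sensor of Z-form nucleic acids, rose from 0.185 ± 0.124 to 2.7 ± 1.29 CPM (3.85 ± 0.58, adjusted p = 0.0148). Parp12 and Parp14, interferon-induced ADP-ribosyltransferases, had log2 fold changes of 1.1 ± 0.15, adjusted p = 0.0136 and 1.73 ± 0.24, adjusted p = 0.0136. Parp12 is outside the list, as is Ddx60, a helicase linked to RNA sensing, which read 0.936, 0.843, 1.04 and 0.589 CPM in sham and 7.77, 3.46, 4.56, 10.2 and 4.18 CPM at 7 d, without overlap (log2 fold change 2.81 ± 0.37 (SE), adjusted p = 0.0133; 6 of the 9). Ifi209, a member of the Ifi200 cluster whose copies can share reads, read 0, 0.181, 0.0497 and 0 CPM in sham and 3.4, 0.945, 2.79, 3.84 and 3.66 CPM at 7 d and was called in 8 of the 9 fits. Leaving out sham 1, 2, 3 or 4 in turn left 13, 5, 0 and 1 of the 37 called higher. Leaving out CVST 7 d 1 to 5 in turn gave 22, 36, 26, 20 and 25. CVST 7 d 4 had the highest list mean (2.51 log2 above the sham mean) and CVST 7 d 2 the lowest of the 7 d libraries (0.88).

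**Figure D3:**
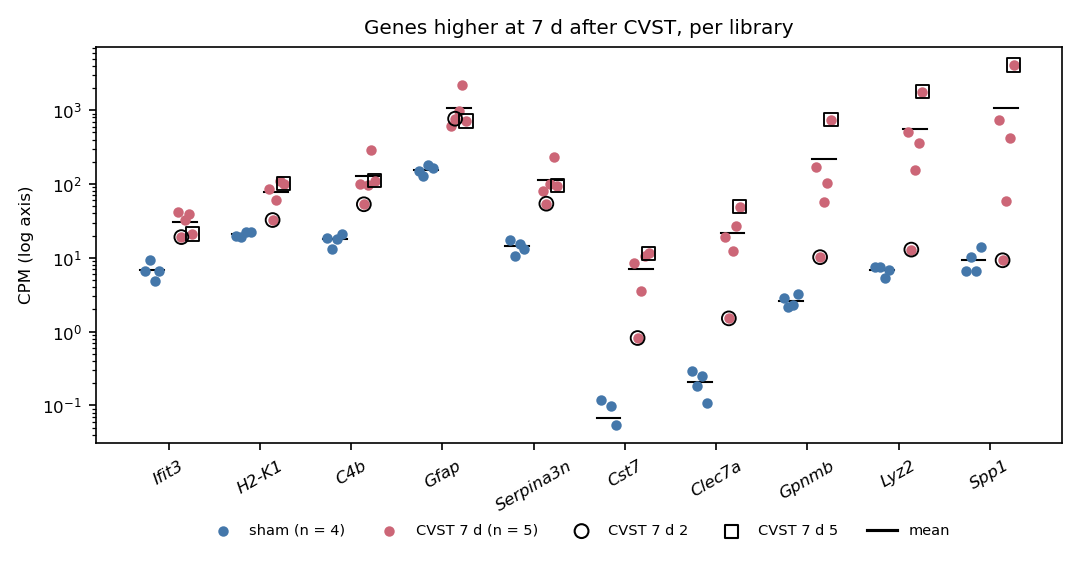
CPM (log axis) of 10 genes called higher at 7 d, one point per library (blue sham, n = 4; red CVST 7 d, n = 5; black bars are means), with CVST 7 d 2 ringed and CVST 7 d 5 boxed. CVST 7 d 2 is the lowest 7 d library for every gene shown except Gfap, and lies within the sham range for Spp1; Cst7 in sham 2, at 0, cannot be drawn on this axis.

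Antigen presentation genes load peptides and display them to T cells. Of 19 class I genes, 11 were higher (median log2 fold change 1.67), and of 9 class II genes tested 6 were (2.35). H2-K1 (ENSMUSG00000061232), a class I heavy chain, read 19.6, 18.9, 22.6 and 22.6 CPM in sham and 85.3, 32.5, 60.8, 111 and 101 CPM at 7 d (log2 fold change 1.9 ± 0.31 (SE), adjusted p = 0.0182; 5 of the 9). B2m read 71.3, 62.1, 61.2 and 64.7 CPM in sham and 248, 91.1, 169, 271 and 253 CPM at 7 d (log2 fold change 1.67 ± 0.28 (SE), adjusted p = 0.019; 5 of the 9). For both, CVST 7 d 2 was the lowest of the 7 d libraries yet above all sham libraries. Tap1, the peptide transporter, rose from 2.23 ± 0.529 to 8.67 ± 3.74 CPM (1.96 ± 0.37, adjusted p = 0.0293), and Nlrc5, the class I transactivator, from 0.605 ± 0.311 to 4.17 ± 2.06 CPM (2.76 ± 0.50, adjusted p = 0.0276). Class I heavy chain genes such as H2-D1 (2.03 ± 0.35, adjusted p = 0.0226) and H2-Q4 (1.72 ± 0.29, adjusted p = 0.0201) are close copies, and how reads were divided among them is not known here. For class II, Cd74, the invariant chain, read 1.99, 2.65, 2.93 and 3.43 CPM in sham and 15.2, 5.04, 13.2, 20.5 and 48.2 CPM at 7 d (log2 fold change 2.89 ± 0.56 (SE), adjusted p = 0.0313; 4 of the 9). H2-Aa, an alpha chain, read 1.46, 2.17, 1.29 and 1.61 CPM in sham and 7.56, 1.51, 8.15, 14.8 and 29.2 CPM at 7 d, where CVST 7 d 2 lay inside the sham range (log2 fold change 2.91 ± 0.68 (SE), adjusted p = 0.0463; 1 of the 9). Cd86, a costimulator of T cells, rose from 1.58 ± 0.266 to 7.29 ± 3.0 CPM (2.21 ± 0.33, adjusted p = 0.0147). Of the 19 class I genes, 0, 0, 0 and 0 were called higher when sham 1, 2, 3 or 4 was left out. The numbers without CVST 7 d 1 to 5 were 6, 15, 9, 3 and 8. The number of the 9 class II genes called higher was 0, 0, 0 and 0 without sham 1, 2, 3 and 4. It was 3, 7, 4, 2 and 3 without CVST 7 d 1 to 5.

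Complement proteins, Fc receptors and pattern recognition receptors equip phagocytes to bind their targets. Called higher were 11 of 18 complement genes (median log2 fold change 2.22), 8 of 9 Fc receptors and adaptors (2.18) and 11 of 21 pattern recognition genes (1.55). C4b, a cascade component made by astrocytes and other cells, read 18.7, 13.3, 17.8 and 21.1 CPM in sham and 98.7, 53.2, 95.8, 292 and 112 CPM at 7 d, and CVST 7 d 4 stood above the rest (log2 fold change 2.88 ± 0.45 (SE), adjusted p = 0.016; 5 of the 9). Its copy C4a can share reads with it. C1qa and C1qb, chains of the recognition molecule made by microglia, rose from 29.9 ± 2.22 to 152 ± 93.3 CPM (2.35 ± 0.45, adjusted p = 0.0302) and from 30.4 ± 2.12 to 144 ± 84.2 CPM (2.24 ± 0.42, adjusted p = 0.0286). C3, the central component, read 0.409, 0.181, 0.199 and 0.643 CPM in sham and 6.17, 0.630, 12.4, 24.7 and 7.63 CPM at 7 d, where CVST 7 d 2 overlapped sham (log2 fold change 4.82 ± 0.92 (SE), adjusted p = 0.0305; 4 of the 9), and its receptor C3ar1 rose from 1.82 ± 0.699 to 22.3 ± 16.9 CPM (3.62 ± 0.68, adjusted p = 0.0293).

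Fcgr4, an activating receptor for IgG, rose from 0.152 ± 0.0926 to 3.1 ± 1.79 CPM (4.29 ± 0.66, adjusted p = 0.0154). Fcgr3 rose from 9.7 ± 1.13 to 42.96 ± 25.4 CPM (2.15 ± 0.42, adjusted p = 0.0313) and the inhibitory Fcgr2b from 3.81 ± 0.322 to 25.9 ± 17.3 CPM (2.77 ± 0.54, adjusted p = 0.0311). Cd14, which presents lipopolysaccharide to TLR4, rose from 1.98 ± 0.254 to 7.11 ± 3.88 CPM (1.85 ± 0.38, adjusted p = 0.0322), and Cd180, a TLR-like receptor, from 1.78 ± 0.295 to 16.6 ± 11.5 CPM (3.23 ± 0.54, adjusted p = 0.0194). Tlr8, an RNA sensor, had 2 counts over the 4 sham libraries and 187 over the 5 at 7 d, a ratio of 82.8 per count sequenced with a 95% counting interval of 22.6 to 689. Ccl5 and Cyp4f18, a chemokine and a fatty acid hydroxylase, had 0 counts in every sham library and 91 and 159 counts at 7 d, at least 26.9-fold and at least 46.9-fold higher if the 4 sham libraries together held 3 counts, the upper limit that 0 allows. Such intervals and floors cover counting error only. Tlr8, Ccl5 and Cyp4f18 were each called in 1 of the 9 fits that leave out 1 library. Leaving out sham 1, 2, 3 or 4 in turn left 0, 0, 0 and 0 of the 18 complement genes called higher. Leaving out CVST 7 d 1 to 5 in turn gave 6, 15, 9, 1 and 8. Of the 9 Fc genes, 0, 0, 0 and 0 were called higher when sham 1, 2, 3 or 4 was left out. The numbers without CVST 7 d 1 to 5 were 3, 9, 6, 1 and 7. The number of the 21 pattern recognition genes called higher was 0, 0, 0 and 0 without sham 1, 2, 3 and 4. It was 4, 17, 9, 1 and 5 without CVST 7 d 1 to 5.

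Genes of disease-associated microglia, the lipid- and debris-laden state found around damaged tissue, were called higher in 14 of 22 and lower in 0 (median log2 fold change 2.16). Clec7a, a receptor for glucans, read 0.292, 0.181, 0.249 and 0.107 CPM in sham and 19.1, 1.51, 12.5, 27.2 and 49.2 CPM at 7 d (log2 fold change 6.68 ± 1.01 (SE), adjusted p = 0.0153; 5 of the 9). Gpnmb, a lysosomal and surface glycoprotein of loaded phagocytes, read 2.87, 2.17, 2.29 and 3.21 CPM in sham and 173, 10.2, 56.4, 103 and 741 CPM at 7 d (log2 fold change 6.36 ± 1.19 (SE), adjusted p = 0.0293; 4 of the 9). Both spanned over an order of magnitude among the 7 d libraries, from CVST 7 d 2 at the bottom to CVST 7 d 5 at the top. Cst7, an inhibitor of cathepsins, read 0.117, 0, 0.0995 and 0.0536 CPM in sham and 8.53, 0.819, 3.59, 10.6 and 11.5 CPM at 7 d (log2 fold change 6.53 ± 0.94 (SE), adjusted p = 0.014; 6 of the 9 fits). Itgax, the integrin CD11c, rose from 0.153 ± 0.105 to 11.3 ± 13.2 CPM (6.15 ± 1.157, adjusted p = 0.0297), and Lgals3, galectin-3, from 0.540 ± 0.227 to 28.4 ± 41.1 CPM (5.68 ± 1.25, adjusted p = 0.0378).

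Spp1, osteopontin, read 6.61, 10.1, 6.61 and 14.1 CPM in sham and 743, 9.26, 58.9, 425 and 4095 CPM at 7 d. CVST 7 d 2 lay within the sham range, and the adjusted p was close to the threshold (log2 fold change 6.83 ± 1.6 (SE), adjusted p = 0.0469; 2 of the 9 fits). Trem2, the lipid receptor that drives this state, rose from 9.27 ± 1.21 to 43.4 ± 27.8 CPM (2.23 ± 0.47, adjusted p = 0.0345; 2 of the 9). Aif1, the microglial protein IBA1, was not called (3.88 ± 0.617 CPM in sham and 10.4 ± 5.09 CPM at 7 d; 1.42 ± 0.35, adjusted p = 0.0555). Lag3, an inhibitory receptor best known on T cells, was higher without overlap: it read 2.51, 4.81, 3.13 and 3.21 CPM in sham and 22.5, 11.4, 12.6, 28.4 and 24.6 CPM at 7 d (log2 fold change 2.54 ± 0.32 (SE), adjusted p = 0.0133; 7 of the 9). Cd22, a sialic acid receptor of B cells that microglia also make, rose from 0.098 ± 0.0587 to 4.41 ± 3.17 CPM (5.42 ± 0.83, adjusted p = 0.0154). Leaving out sham 1, 2, 3 or 4 in turn left 1, 0, 0 and 0 of the 22 called higher. Leaving out CVST 7 d 1 to 5 in turn gave 5, 19, 13, 2 and 11.

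Lysosomes digest what phagocytes take up. Of 28 lysosomal genes tested, 11 were higher (median log2 fold change 0.93), and Ctss, a cathepsin of antigen-presenting cells, was among them. It read 50.1, 51.8, 43.8 and 50.6 CPM in sham and 231, 90.3, 169, 365 and 395 CPM at 7 d (log2 fold change 2.35 ± 0.38 (SE), adjusted p = 0.0182; 5 of the 9). Ctsd, the main aspartic protease of lysosomes, listed with the disease-associated microglia, rose from 316 ± 21.7 to 1365 ± 893 CPM (2.11 ± 0.45, adjusted p = 0.0345). Grn, progranulin, rose from 45.9 ± 3.3 to 179 ± 109 CPM (1.96 ± 0.40, adjusted p = 0.0321). Man2b1, a lysosomal mannosidase, rose from 41.9 ± 1.4 to 91.4 ± 28.1 CPM (1.13 ± 0.20, adjusted p = 0.0242). Homeostatic microglial genes had 4 calls of 15, Csf1r, the receptor that keeps microglia alive, among them (from 78.9 ± 4.99 to 184 ± 78.3 CPM; 1.22 ± 0.27, adjusted p = 0.0381). Abca1, which exports cholesterol from loaded phagocytes, was the 1 call of 17 lipid handling genes (from 32.6 ± 7.47 to 139 ± 81.1 CPM; 2.1 ± 0.41, adjusted p = 0.0313). Of the 28 lysosomal genes, 0, 0, 0 and 0 were called higher when sham 1, 2, 3 or 4 was left out. The numbers without CVST 7 d 1 to 5 were 2, 23, 7, 1 and 8.

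Markers of blood-borne cells and of macrophages were measured beside these. Of 14 monocyte and macrophage genes tested, 3 were higher, and the summed level of the whole list of 19 was 17.3 to 19.5 CPM in sham and 25.1 to 2096 CPM at 7 d. Lyz2, lysozyme of myeloid cells, read 7.43, 7.46, 5.37 and 6.75 CPM in sham and 513, 12.9, 154, 359.9 and 1770.0 CPM at 7 d (log2 fold change 6.38 ± 1.2 (SE), adjusted p = 0.0297; 4 of the 9). The sums of the whole list at 7 d were 552, 25.1, 210, 440 and 2096 CPM, so Lyz2 alone made up most of each. The list mean, which weighs members equally, was 2.29, -0.17, 2.27, 2.48 and 4.17 (log2) from the sham mean at 7 d. DESeq2, counted over all 19, called 12 higher and 0 lower. Msr1, a scavenger receptor, and Ms4a6c had log2 fold changes of 5.4 ± 1.19, adjusted p = 0.0382 and 3.73 ± 0.82, adjusted p = 0.0377. They were called in 1 and 2 of the 9 fits that leave out 1 library, and for Ms4a6c CVST 7 d 2 overlapped sham. The 12 neutrophil genes summed to 5.54 to 8.56 CPM in sham and 9.33 to 38.2 CPM at 7 d. Csf3r alone made up most of that sum in every 7 d library. Of the 12 genes, 2 passed the filter on low counts. Csf3r, 1 of the 2, the G-CSF receptor that microglia also express, was higher (from 4.43 ± 0.549 to 17.3 ± 9.75 CPM; 1.96 ± 0.38, adjusted p = 0.0305). The defining neutrophil genes S100a8, S100a9 and Ly6g had 19, 39 and 1 counts in all 4 sham libraries and 25, 13 and 0 in the 5 at 7 d. Of 18 T and NK cell genes 3 were tested and edgeR called 0, with 0 at an unadjusted p under 0.05. DESeq2, counted over all 18, called 1 higher. The list sum was 5.61 to 20.8 CPM in sham and 8.76 to 27.6 CPM at 7 d. Cd3e, the T cell receptor subunit, had 5 counts in sham and 7 at 7 d, and Trac had 36 and 39. Cd3d had 0 and 5 counts, and Cd8a had 1 and 19, of which 11 were in 1 library. Of 12 B and dendritic cell genes 2 were tested and edgeR called 0, with 1 higher at an unadjusted p under 0.05. DESeq2, counted over all 12, called 2 higher. The list sum was 21.6 to 52.02 CPM in sham and 33.9 to 74.1 CPM at 7 d. The part of entering monocytes in the phagocyte genes above was not tested.

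Of 15 chemokine and cytokine genes tested, 6 were higher and 1, Cx3cl1, was lower. Cxcl10, an interferon-induced attractant of T cells, read 0, 0.963, 0.199 and 0.107 CPM in sham and 5.06, 1.51, 4.05, 9.91 and 3.19 CPM at 7 d (log2 fold change 3.91 ± 0.81 (SE), adjusted p = 0.0336; 2 of the 9), and Ccl9 rose from 1.2 ± 0.209 to 7.7 ± 7.14 CPM (2.68 ± 0.59, adjusted p = 0.0378). Ccl12, an attractant of monocytes, read 0.526, 0.120, 0.0497 and 0.107 CPM in sham and 1.73, 0.441, 1.54, 6.68 and 2.72 CPM at 7 d, so that CVST 7 d 2 overlapped sham 1 (log2 fold change 3.7 ± 0.85 (SE), adjusted p = 0.0441; 1 of the 9). The number of the 15 called higher was 0, 0, 0 and 0 without sham 1, 2, 3 and 4. It was 0, 9, 2, 0 and 3 without CVST 7 d 1 to 5.

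**Figure D4:**
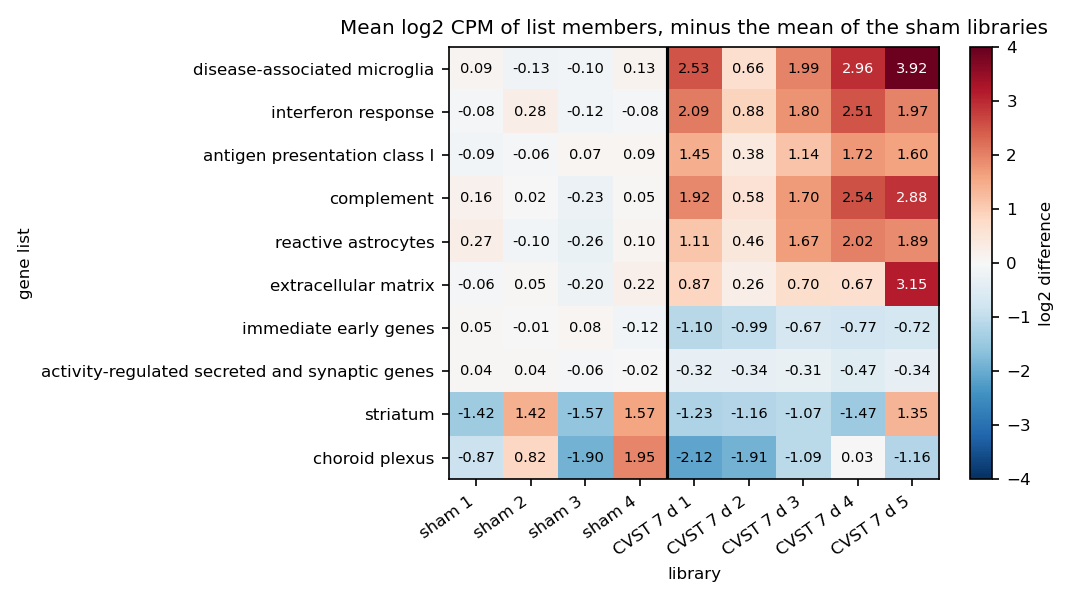
Mean log2 CPM of the members of 10 gene lists in each of the 9 libraries, minus the mean of the 4 sham libraries (colour and printed value, log2 scale; vertical line between sham and 7 d). CVST 7 d 2 has the smallest rise of the 7 d libraries in each of the 6 upper lists, all 7 d libraries are low in both activity lists, and sham 2, sham 4 and CVST 7 d 5 are high in striatal genes.

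Reactive astrocyte genes had 10 calls of 24 (median log2 fold change 1.63). Gfap (ENSMUSG00000020932), the intermediate filament of astrocytes, read 152, 127, 179.7 and 167 CPM in sham and 609, 767, 979, 2229 and 715 CPM at 7 d. The groups were far apart, and here CVST 7 d 2 did not lie near sham (log2 fold change 2.76 ± 0.38 (SE), adjusted p = 0.0136; 6 of the 9 fits). Vim, vimentin, read 37.7, 26.8, 30.5 and 37.7 CPM in sham and 107, 133, 147, 374 and 316 CPM at 7 d (log2 fold change 2.7 ± 0.39 (SE), adjusted p = 0.014; 6 of the 9). Serpina3n, a secreted protease inhibitor, read 17.3, 10.7, 15.6 and 13.3 CPM in sham and 80.8, 54.1, 100.2, 230.2 and 94.9 CPM at 7 d (log2 fold change 2.98 ± 0.40 (SE), adjusted p = 0.0133; 6 of the 9). Aspg, a marker of reactive astrocytes with asparaginase activity, rose from 1.91 ± 0.940 to 8.18 ± 1.68 CPM (2.1 ± 0.30, adjusted p = 0.014). Homeostatic astrocyte genes had 2 calls of 18, both higher. Aqp4, the water channel of astrocyte endfeet, read 105, 167, 131 and 125 CPM in sham and 224, 227, 231, 351 and 204 CPM at 7 d (log2 fold change 0.90 ± 0.18 (SE), adjusted p = 0.0313; 5 of the 9), and Aldh1l1, a folate enzyme of astrocytes, rose from 47.99 ± 2.1 to 68.5 ± 8.63 CPM (0.51 ± 0.0947, adjusted p = 0.028). Scara3, a scavenger receptor-like protein outside the lists, rose without overlap (29.997, 27.1, 30.3 and 25.2 CPM in sham and 45.8, 47.05, 50.4, 62.1 and 54.1 CPM at 7 d; log2 fold change 0.88 ± 0.10 (SE), adjusted p = 0.0133; 8 of the 9 fits). Leaving out sham 1, 2, 3 or 4 in turn left 5, 0, 0 and 0 of the 24 called higher. Leaving out CVST 7 d 1 to 5 in turn gave 7, 13, 7, 6 and 8.

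In the oligodendrocyte lineage, 2 of 14 precursor-stage genes were higher and 0 of 16 myelin genes were called in edgeR (1 higher and 0 lower at an unadjusted p under 0.05, and 0 in DESeq2). Enpp6, a choline phosphodiesterase of newly forming oligodendrocytes, read 12.2, 8.25, 5.42 and 6.64 CPM in sham and 20.3, 19.2, 13.1, 31.8 and 24.4 CPM at 7 d (log2 fold change 1.43 ± 0.28 (SE), adjusted p = 0.0314). Bmp4, a secreted factor of committed precursors, read 2.05, 2.65, 2.34 and 2.25 CPM in sham and 2.98, 5.23, 3.65, 5.51 and 4.65 CPM at 7 d (log2 fold change 0.92 ± 0.21 (SE), adjusted p = 0.0447). Both were without overlap, and they were called in 3 of the 9 (Enpp6) and 1 of the 9 (Bmp4) fits. Mbp, myelin basic protein, read 3671, 1685, 1469 and 1809 CPM in sham and 2148, 1813, 1617, 3792 and 2744 CPM at 7 d, high in sham 1 and CVST 7 d 4, and was not called (log2 fold change 0.17 ± 0.31 (SE), adjusted p = 0.806).

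Matrix and vessel genes showed wide spread and few calls. Of 30 extracellular matrix genes, 23 were higher at an unadjusted p under 0.05 and 1 was called, Lama2, a laminin chain of basement membranes (12.6, 14.1, 10.9 and 12.2 CPM in sham and 17.5, 18.9, 17.2, 19.8 and 21.8 CPM at 7 d; log2 fold change 0.61 ± 0.11 (SE), adjusted p = 0.0244; 4 of the 9 fits). Col1a1, the main fibrillar collagen, read 7.19, 11.7, 7.41 and 11.1 CPM in sham and 71.1, 19.9, 44.96, 26.9 and 876 CPM at 7 d. Every 7 d library exceeded every sham library, but CVST 7 d 5 was an order of magnitude above the other 7 d libraries, and the gene was not called (log2 fold change 4.47 ± 1.23 (SE), adjusted p = 0.0747). Serpinf1, the antiangiogenic factor PEDF, was one of 2 calls among 18 proteases and inhibitors (from 6.69 ± 1.04 to 22.99 ± 9.18 CPM; 1.78 ± 0.27, adjusted p = 0.0153). Of 22 TGF-beta pathway genes 4 were higher, including Tgif1, a repressor of SMAD targets (from 0.857 ± 0.0583 to 4.69 ± 3.12 CPM; 2.45 ± 0.49, adjusted p = 0.0314), and Tgfbr2, the type II receptor (from 20.9 ± 3.57 to 50.9 ± 21.4 CPM; 1.28 ± 0.29, adjusted p = 0.0416). For Tgfbr2 the groups overlapped, and it was called in 1 of the 9 fits. Blood-brain barrier endothelium (18 genes), activated endothelium and haemostasis (21) and mural cells (14) had 0 calls each in edgeR, with 4, 9 and 0 genes higher and 1 lower in each at an unadjusted p under 0.05. DESeq2's Wald test, counted over all members of each list, called 3, 5 and 0 higher and 0, 0 and 0 lower. Cldn5, the tight junction claudin, read 32.3, 33.8, 24.3 and 36.5 CPM in sham and 35.6, 24.6, 30.4, 34.96 and 31.6 CPM at 7 d (log2 fold change -0.0128 ± 0.14 (SE), adjusted p = 0.971).

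Haem and oxidative stress genes were higher in part. Hmox1 (ENSMUSG00000005413), which opens haem and frees its iron, read 4.03, 3.73, 2.64 and 3.64 CPM in sham and 12.000, 5.67, 62.3, 41.4 and 71.5 CPM at 7 d. The 7 d libraries fell apart, with CVST 7 d 2 and CVST 7 d 1 low and the other 3 high (log2 fold change 3.46 ± 0.70 (SE), adjusted p = 0.0314; 4 of the 9 fits). Slc11a1, which exports iron from phagosomes, rose from 1.64 ± 0.422 to 12.7 ± 8.16 CPM (2.94 ± 0.53, adjusted p = 0.0271), and the calls were 3 of 19 haem and iron genes. Red cell genes had 0 calls of 6 tested in edgeR, 0 at an unadjusted p under 0.05 and 0 in DESeq2. Hba-a1, alpha globin, read 1.11, 5.72, 0.696 and 2.14 CPM in sham and 6.45, 0.378, 0.741, 2.06 and 2.61 CPM at 7 d, overlapping throughout (log2 fold change 0.0162 ± 0.78 (SE), adjusted p = 0.995). Of 24 antioxidant genes 4 were higher. Cat, catalase, read 35.1, 39.1, 37.8 and 37.6 CPM in sham and 47.7, 54.2, 51.9, 59.8 and 60.2 CPM at 7 d (log2 fold change 0.55 ± 0.0813 (SE), adjusted p = 0.0147; 5 of the 9). Cybb, a subunit of the phagocyte oxidase, makes superoxide rather than removing it, and rose from 0.498 ± 0.164 to 14.1 ± 13.3 CPM (4.82 ± 0.99, adjusted p = 0.0323). For Cybb the groups overlapped, and it was called in 3 of the 9 fits. Hk2, a hexokinase, was higher (from 4.08 ± 0.535 to 10.5 ± 4.2 CPM; 1.37 ± 0.27, adjusted p = 0.0314) and was with Vegfa the only call among 20 hypoxia and glycolysis genes.

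Cell cycle genes had 4 calls of 26 (median log2 fold change 1.24), at low levels. Cdk1, the mitotic kinase, read 0.117, 0.0602, 0.249 and 0.214 CPM in sham and 1.66, 0.882, 1.31, 2.06 and 7.11 CPM at 7 d (log2 fold change 3.94 ± 0.75 (SE), adjusted p = 0.0305; 4 of the 9). Kif20a, a mitotic kinesin, rose from 0.363 ± 0.250 to 2.36 ± 1.68 CPM (2.67 ± 0.60, adjusted p = 0.0397), and Tpx2, a spindle factor, from 2.49 ± 0.448 to 6.18 ± 2.58 CPM (1.31 ± 0.29, adjusted p = 0.0376). Of 23 p53 target and apoptosis genes 3 were higher. Of the 26 cell cycle genes, 0, 0, 0 and 0 were called higher when sham 1, 2, 3 or 4 was left out. The numbers without CVST 7 d 1 to 5 were 3, 11, 4, 0 and 3.

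Against these, markers of neuronal identity and transmission were mostly not called. Excitatory layer identity (25 genes), glutamate and GABA receptors (36) and voltage-gated and potassium channels (45) had 0 calls each in edgeR, with 2, 4 and 1 genes lower and 1, 0 and 0 higher at an unadjusted p under 0.05; DESeq2 called 0, 0 and 0 lower. Homer1 was the 1 call of 39 synaptic scaffold and release genes, of which 12 were lower and 0 higher at an unadjusted p under 0.05, against 1453 lower of 16431 genes tested. DESeq2 called 5 of that list lower and 0 higher. Median log2 fold changes were 0.00738, -0.11, -0.12 and -0.18 for the 4 lists in that order, beside -0.0131 for all genes. The summed levels of the excitatory layer genes, 2324 to 2834 CPM in sham and 2308 to 2978 CPM at 7 d, overlapped, whereas those of the immediate early genes did not. The regional lists for striatum, choroid plexus, hippocampus, thalamus, ependyma and meninges had 0 calls in edgeR, with 0, 0, 0, 3, 1 and 2 genes higher and 0, 5, 0, 2, 1 and 0 lower at an unadjusted p under 0.05. DESeq2, counted over all members of each list, called 0, 0, 0, 1, 0 and 1 higher and 0, 2, 0, 1, 0 and 0 lower. Choroid plexus and striatum had medians of -1.99 and -0.96, and their summed levels were highest in sham 2 and sham 4. The part of this uneven tissue content in the called genes was not tested beyond the fits without those libraries and the fit with the striatal score as a covariate.

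The 2 d libraries show which of these genes changed between the times. The contrast sets 7 d against 2 d directly, but its fit holds all 14 libraries. Sham therefore enters its filter, scaling and estimate of spread. Over 16918 genes, 261 (1.54%) rose and 212 (1.25%) fell from 2 d to 7 d in the edgeR fit of all 14 libraries. In a fit of the 10 CVST libraries alone the counts were 55 and 26. The results for genes and lists that follow come from the fit of all 14 libraries. Of the immediate early genes, 8 of 26 fell between the times, and of the activity-regulated genes 7 of 28. Fos read 19.2, 39.9, 19.96, 68.2 and 13.5 CPM in CVST 2 d libraries 1 to 5, against 4.50 to 10.8 CPM at 7 d on the same scale (log2 fold change, 7 d minus 2 d, -2.04 ± 0.38, adjusted p = 0.0162). CVST 2 d libraries 2 and 4 were above all sham libraries, and the other 3 below. Fosb (-1.92 ± 0.43, adjusted p = 0.033), Arc (-1.48 ± 0.30, adjusted p = 0.0194), Junb (-1.03 ± 0.21, adjusted p = 0.020), Npas4 (-1.43 ± 0.36, adjusted p = 0.0498), Spry4 (-0.71 ± 0.13, adjusted p = 0.0165) and Nab2 (-0.40 ± 0.0723, adjusted p = 0.0145) were also lower at 7 d. Cort was low at both times, with 1.75, 1.92, 1.64, 1.32 and 2.72 CPM at 2 d, and was not called between them (-0.53 ± 0.27, adjusted p = 0.276). Nr4a1 read 32.9, 50.6, 52.3, 54.5 and 35.8 CPM at 2 d (-0.52 ± 0.17, adjusted p = 0.104).

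**Figure D5:**
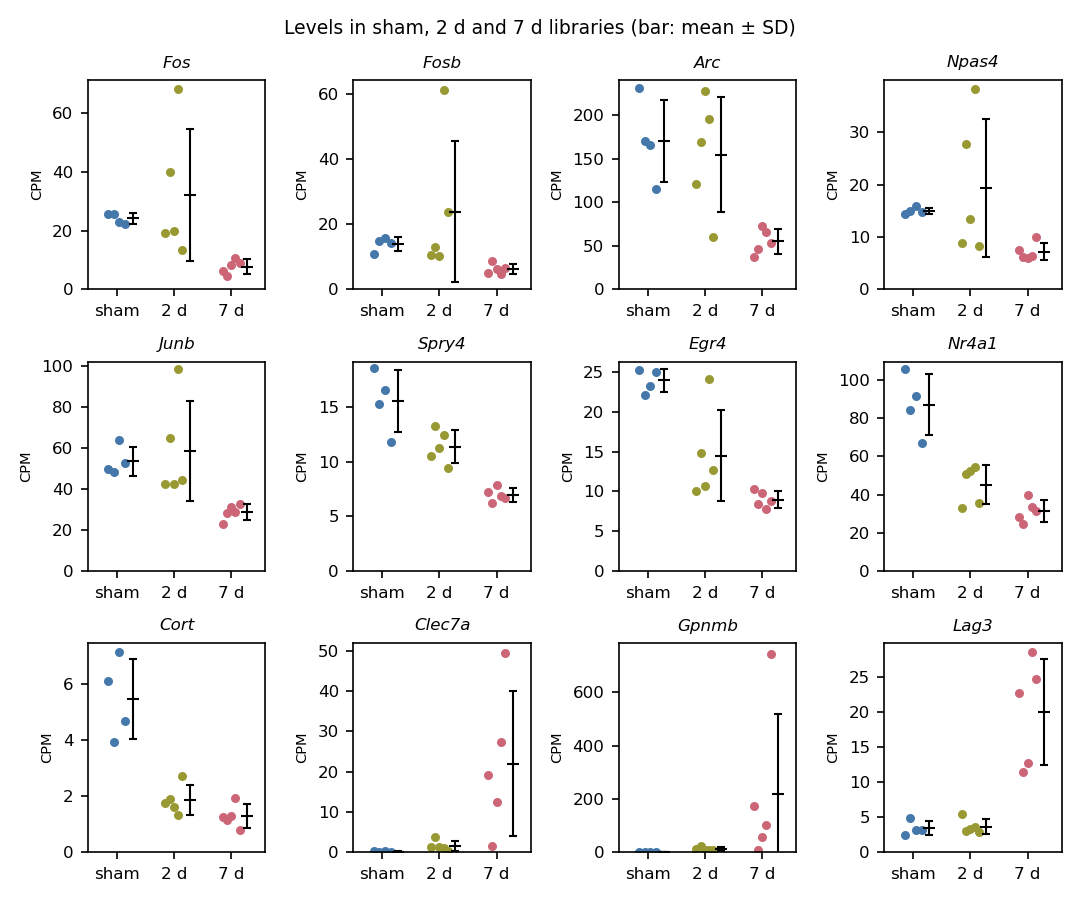
CPM (linear axis, TMM factors of all 14 libraries) of 12 genes in sham (blue, n = 4), 2 d (olive, n = 5) and 7 d (red, n = 5) libraries, with mean ± SD in black. Fos, Fosb, Npas4 and Junb spread widely at 2 d and lie low and close together at 7 d, Cort is low at both times, and Clec7a, Gpnmb and Lag3 have their highest means at 7 d.

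Among the higher genes, Clec7a, Gpnmb, Itgax, Lag3, Ddx60 and Parp14 were higher at 7 d than at 2 d. Lag3 read 5.48, 3.05, 3.4, 3.58 and 2.84 CPM at 2 d, close to sham, and 11.5 to 28.5 CPM at 7 d (2.45 ± 0.28, adjusted p = 0.00276). Clec7a read 1.31, 3.75, 1.37, 0.990 and 0.405 CPM at 2 d (3.78 ± 0.70, adjusted p = 0.0156) and Gpnmb 12.2, 24.5, 10.2, 10.2 and 8.11 CPM (4.05 ± 0.82, adjusted p = 0.0194). Of the disease-associated microglia genes 5 of 22 rose between the times, and of the interferon genes 3 of 37. Enpp6 (1.49 ± 0.23, adjusted p = 0.00737), Bmp4 (1.14 ± 0.23, adjusted p = 0.0179), Lama2 (0.82 ± 0.11, adjusted p = 0.00314) and Scara3 (0.55 ± 0.0926, adjusted p = 0.0112) were higher too. Enpp6 was even across the 2 d libraries, at 7.61, 8.58, 7.79, 7.65 and 7.12 CPM. Of the reactive astrocyte genes, 6 of 24 fell after 2 d; Gfap was not called between the times (-0.32 ± 0.35, adjusted p = 0.643), nor was Serpina3n (-0.99 ± 0.38, adjusted p = 0.154). Hba-a1 was lower at 7 d than at 2 d (-3.6 ± 0.91, adjusted p = 0.048), with 2 d libraries 2 and 3 the highest of the series.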

How the data were processed

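Members and gene lists were chosen with earlier results of these data known. Per the labels' protocols, total RNA of mouse cortex went into NEBNext Ultra libraries; fastp, HISAT2, DESeq2 1.16.1 and mm39 are named in the submitters' processing notes, while counting tool, strand setting and annotation were not given in the sources used here. Raw read counts per gene and FPKM values were deposited by the authors. The counts were tested; the FPKM values served only to check gene lengths. The 535 loci without an Ensembl gene (0.233% to 0.278% of counts) were left out.

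The 4 sham and 5 CVST 7 d libraries were fitted in edgeR 4.0.16 (R 4.3.3; TMM, filterByExpr, quasi-likelihood F test, 2-sided, Benjamini-Hochberg over 16431 genes, called at adjusted p under 0.05). SE is the size of the log2 fold change divided by the square root of F. The times were compared in a fit of all 14 libraries (16918 genes). On simulated data for this comparison, with 200 of 16431 genes changed, edgeR recovered 80% of changes of 1 log2 unit and 96% of 2, with 15 false calls. The simulation drew each gene on its own and changed only genes above 1 CPM. It held no tissue difference shared by many genes of a library, so these figures need not hold for the real libraries. Libraries of a group differed beyond sampling noise (lowest chi-square per degree of freedom 8.27). Named were the 15 largest fold changes without overlap (mean of at least 1 CPM in the higher group), the 10 lowest p-values in each direction, the 8 most abundant lower genes, up to 4 called members of lowest p in each list, and a panel of 13 markers. Predicted genes were not named, and some genes that the rule names are not reported here. Outside this rule, Bst2, C1qa, C3, Ccl12, Cd14, Ctsd, Dusp6, Egr3, H2-Aa, Irf7, Jun, Klf10, Lgals3bp, Nlrc5, Nr4a2, Parp14, Rheb, Sst, Tap1, Usp18, Zbp1 and the defining markers of blood cells were chosen after their values were seen. The fit was repeated with other normalizations, filters, tools, blocks and left-out libraries; the settings on striatal genes were added after seeing the data. Lists share members (Itgax, Per1, Dusp1, Homer1, Vegfa, Bmp4, Ctss).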

Additional observations from a re-analysis of the deposited data

Results flagged for a closer look

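Some genes had 1 library far from the rest of its group by Dixon's test at 95%, which chance alone gives in about 1 group of 20. CVST 7 d 4 stood apart in Aqp4 (351 CPM), C4b (292 CPM), Gfap (2229 CPM), Serpina3n (230.2 CPM) and Ttr (104 CPM). Sham 2 stood apart in Bst2 (2.05 CPM) and Tlr8 (0.120 CPM). Sham 1 stood apart in C1qb (33.6 CPM), Ccl12 (0.526 CPM), Mbp (3671 CPM) and mt-Co2 (486 CPM). CVST 7 d 5 stood apart in Ccl9 (20.1 CPM), Cd300lb (7.48 CPM), Cdk1 (7.11 CPM), Col1a1 (876 CPM), Gpnmb (741 CPM), Gpr65 (8.26 CPM), Kif20a (5.23 CPM), Lgals3 (101 CPM), Lyz2 (1770.0 CPM), Msr1 (25.3 CPM) and Spp1 (4095 CPM). Sham 3 stood apart in Cd300lb (0.0497 CPM). CVST 7 d 2 stood apart in Egr1 (75.4 CPM) and Jun (93.02 CPM). Sham 4 stood apart in Man2b1 (43.98 CPM). CVST 7 d 1 stood apart in mt-Atp6 (1614 CPM).

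Other genes reported above differed between 7 d and 2 d in edgeR's test of that difference over 16918 genes. On the log2 scale, 7 d minus 2 d, the higher genes were Abca1 (1.43, adjusted p = 0.0442), Bmp4 (1.14, adjusted p = 0.0179), Cd22 (2.59, adjusted p = 0.0462), Clec7a (3.78, adjusted p = 0.0156), Ctss (1.26, adjusted p = 0.0442), Ddx60 (1.84, adjusted p = 0.0145), Enpp6 (1.49, adjusted p = 0.00737), Gpnmb (4.05, adjusted p = 0.0194), Itgax (2.98, adjusted p = 0.0437), Lag3 (2.45, adjusted p = 0.00276), Lama2 (0.82, adjusted p = 0.00314), Lgals3bp (1.24, adjusted p = 0.038), Man2b1 (0.88, adjusted p = 0.0145), Parp14 (1.3, adjusted p = 0.0177), Scara3 (0.55, adjusted p = 0.0112) and Tlr8 (3.08, adjusted p = 0.0462). The lower genes were Arc (-1.48, adjusted p = 0.0194), Atf4 (-0.51, adjusted p = 0.0282), Dnajb5 (-0.51, adjusted p = 0.0344), Fos (-2.04, adjusted p = 0.0162), Fosb (-1.92, adjusted p = 0.033), Hba-a1 (-3.6, adjusted p = 0.048), Junb (-1.03, adjusted p = 0.020), Nab2 (-0.40, adjusted p = 0.0145), Npas4 (-1.43, adjusted p = 0.0498) and Spry4 (-0.71, adjusted p = 0.0165).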

How the results depend on the processing

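Against 439 genes higher and 127 lower, DESeq2's Wald test called 1117 and 445, limma voom with quality weights 376 and 183, and the fit of all 14 libraries 611 and 141. RLE factors, robust fitting, no filter on low counts and a filter of 1 CPM in 4 libraries gave 408 to 549 higher and 121 to 130 lower. Leaving out 1 library gave 0 to 877 higher and 1 to 133 lower; these fits have fewer samples, and no other cause was tested. Leaving out sham 2, sham 4 and CVST 7 d 5 together gave 0 and 0. The 10-library fit of 7 d against 2 d gave 55 and 26 against 261 and 212. All 566 called genes kept their direction under every setting in which they were tested. They were called on the same libraries, mostly without overlap, so a kept direction is no separate support. DESeq2 also called all 566 and voom 417. Of the 123 called genes reported, 69 were called in at most 4 of the 9 fits that leave out 1 library.

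With the replicate block, 165 genes were higher and 53 lower. Same-numbered libraries correlated at 0.29, -0.0137, 0.23 and -0.0659 in their deviations from the group means, and pairs of different number at -0.29 to 0.28. Not every library correlated best with its own number. These values cannot show whether the numbers pair the libraries.

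Uncalled genes changed sign. Leaving out 1 library, the log2 fold change spanned -0.12 to 0.079 for Cldn5, -0.70 to 0.88 for Hba-a1, -0.15 to 0.14 for Jun, -0.039 to 0.56 for Mbp and -0.0683 to 0.10 for Slc17a7. With voom it was 0.039 for Cldn5, -0.28 for Hba-a1 and -0.10 for Jun. With the replicate block Hba-a1 was -0.14, and with no filter Slc17a7 was -0.00270. With the striatal covariate Cldn5 was 0.0426 and Slc17a7 -0.0602. Without the 3 striatum-rich libraries Cldn5 was 0.15, Mbp -0.14, Slc17a7 -0.0784 and Ttr 0.43. The cause was not tested.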

Other observations

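Other motifs were searched on both strands of the RefSeq windows. The E-box CACGTG, the core of the CLEAR element of lysosomal genes, occurred in 8 of 21 lysosomal genes with a window, but in 1 of 7 of those called higher, and in 11.2% of genes tested. The TGACG core occurred in 0 of 7 called lysosomal genes. The GAS word TTCNNNGAA occurred in 7 of 28 interferon genes and 8.06% of genes tested, and the CArG box in 2 of 20 immediate early genes and 1.58%. Protein-coding genes made up 88.7% of genes tested, 97.3% of the higher and 97.6% of the lower genes. The median length implied by the deposited FPKM values was 2.39, 2.43 and 2.71 kb in the same order.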
